A study of Homo sapiens with 10 samples.

Results

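The 10 genes described here sit at the head of the extrinsic pathway of apoptosis. They are the death receptors FAS, TNFRSF10A and TNFRSF10B, the decoy receptor TNFRSF10D, the adaptor FADD, the initiator protease CASP8, its inhibitor CFLAR, and the inhibitor of apoptosis proteins (IAPs) BIRC2, BIRC3 and XIAP. They were chosen by name for these roles, with earlier results of these data known. They make up 10 of the 61533 genes counted, and all 10 were among the 16181 genes with enough counts to be tested. The RNA-seq libraries came from 2 human bladder cancer cell lines. T24 is an established line that the study treats as cisplatin-sensitive, and T24R2 was derived from T24 by serial exposure to cisplatin. There were 5 libraries of each line, all labelled day 3 of culture. The labels list the same RPMI medium with serum and antibiotics for both lines, while the study's methods say that T24R2 was maintained with cisplatin, so that the derived line and any drug in its medium cannot be told apart here. T24R2 is a single derived line, and nothing states that the libraries of a line came from separate cultures, so that every p-value measures the spread between libraries, which may be technical.

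Death ligands such as FASLG and TNFSF10 (TRAIL) bind receptors on the cell surface, which gather FADD and CASP8 into a complex in which CASP8 cuts itself into its active form. CFLAR (c-FLIP) occupies the place of CASP8 in that complex, and TNFRSF10D binds TRAIL without passing on a death signal. BIRC2 and BIRC3 (cIAP1 and cIAP2) attach ubiquitin to RIPK1 in receptor complexes and steer signalling towards NF-kB, whereas XIAP inhibits the caspases that CASP8 activates.

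Libraries of T24 held 9257843 to 10247941 counted fragments, and those of T24R2 held 9591379 to 10840954. Levels are given as CPM, counts scaled to library size, after TMM scaling, as mean ± SD with n = 5 for each line. The quasi-likelihood test of edgeR compared T24R2 with T24, with p-values adjusted over all tested genes by the method of Benjamini and Hochberg. A gene was called where the adjusted p was under 0.05 and the log2 fold change exceeded 0.5 in size. On these terms 51.4% of tested genes were called, 24.9% higher and 26.5% lower in T24R2, so that a call by itself sets no gene apart. Without the TMM factors the calls split into 5206 higher and 3431 lower, against 4027 and 4282 with them, and the median log2 fold change of all tested genes lay at 0.18 in place of 0.01. All 6 tested epithelial markers were called lower in T24R2, with a summed level of 4887 to 5611 CPM in T24 and 2988 to 3187 in T24R2, and KRT5 and CDH1 were at or near 0 in both lines. Of 8 leukocyte markers none was tested, their sum reaching 2.69 CPM in T24 and 2.98 in T24R2. The fibroblast and endothelial list summed to 229 to 280 CPM in T24, nearly all of it CDH5 (239 CPM). In T24R2 the list summed to 1.60 to 2.50 CPM, of which CDH5 held 0.559 CPM. The part of these marker differences in the results below was not tested, and a lower level in bulk RNA cannot be divided into fewer expressing cells and less RNA in each cell.

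Of the 10 genes, 3 were called lower in T24R2 (FAS, TNFRSF10B and TNFRSF10D, against 26.5% of all tested genes), 1 was called higher (CASP8, against 24.9%), and 6 were not called. By the adjusted p of edgeR alone, under 0.05 and with no fold change minimum, 8 genes were lower and CASP8 was higher, where 75.5% of all tested genes passed and 37.6% were lower. The 10 genes had a median log2 fold change of -0.26, beside 0.01 over all tested genes. The lines did not overlap in 8 of the 10 genes, beside 61.2% of all tested genes. FAS, TNFRSF10B and TNFRSF10D thus fell, CASP8 alone rose, CFLAR showed no difference beyond the spread of the libraries, and the IAPs and FADD lay modestly below T24. In the plot of levels by library, these patterns can be followed point by point.

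**Figure D1:**
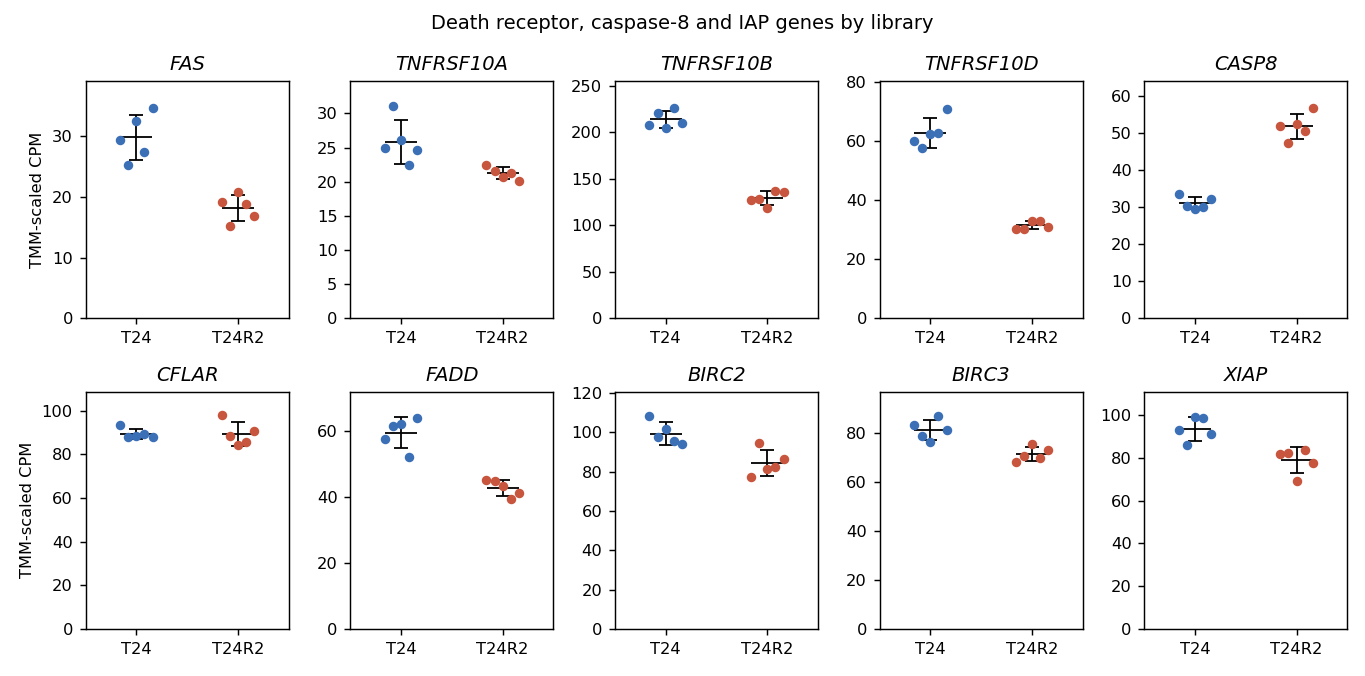
Each panel plots the TMM-scaled CPM of 1 gene (vertical axis, from 0) in the 5 libraries of T24 (blue) and of T24R2 (red), with the mean and SD in black. TNFRSF10B lies at 205 to 227 CPM in T24 and 118 to 137 in T24R2, CASP8 is the only panel in which T24R2 lies wholly above T24, and the points of CFLAR and BIRC2 overlap between the lines.

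The ligands that engage these receptors, FASLG and TNFSF10, were scarce in both lines. TNF and LTB, listed beside them, bind other receptors of the family. FASLG, the ligand of FAS, had 2 counts in T24 replicate 5 and 0 counts in the other 9 libraries, which is at or under the floor of 3 counts per library in both lines, and no fold change is given. TNFSF10 stood at 7.78, 4.73, 5.26, 8.60 and 6.16 CPM in the T24 libraries and at 0.551, 0.347, 0.672, 0 and 0.492 CPM in those of T24R2. Every T24 library was above every T24R2 library, and TNFSF10 fell by 3.96 on the log2 scale (SE 0.32, edgeR adjusted p = 4.8e-14). TNF, the founding ligand of the family, was at 4.82 ± 0.888 CPM (n = 5) in T24 and at 0 or 1 count in each T24R2 library, at least 17.4-fold lower against the floor of 3 counts. LTB, a membrane-bound ligand of the lymphotoxin receptor, rose from 1.13 ± 0.972 to 3.66 ± 0.437 CPM (log2 fold change 1.67, SE 0.32, edgeR adjusted p = 1.2e-05), although T24 replicate 2 held 2.84 CPM, close to the lowest T24R2 library at 2.95. These were the 3 of 6 listed ligands with enough counts to be tested.

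FAS (ENSG00000026103.23, hg38 chr10:88953813-89029605, plus strand) encodes the receptor of FASLG. Its T24 libraries held 29.4, 25.2, 32.5, 27.4 and 34.6 CPM, and its T24R2 libraries 19.1, 15.2, 20.8, 18.8 and 16.8 CPM. The lines did not overlap, and FAS fell by 0.72 on the log2 scale (SE 0.10, edgeR adjusted p = 1.7e-08), to 60.8% of its T24 mean. Exons on the opposite strand, of ACTA2 and of ENSG00000286116, cover 7.18% of the exon bases of FAS. ACTA2, smooth muscle actin, had 5.25 CPM in T24 and 0.441 in T24R2. When the whole counts of both opposite-strand genes were taken off those of FAS, its log2 fold change was -0.39 and no longer called. When they were added it was -0.92. ACTA2 has 2976 exon bases and ENSG00000286116 has 4205, while 1368 bases of FAS are covered. Those counts thus include fragments outside the shared bases, so neither value isolates the reads of the overlap.

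The 3 TRAIL receptor genes with appreciable counts lie in one cluster on chromosome 8, all on the minus strand. TNFRSF10B (DR5, ENSG00000120889.13, chr8:23020133-23069031) was the most abundant at 208.3, 220.7, 204.9, 226.6 and 209.7 CPM in T24, and at 127.4, 128.8, 118.2, 137.3 and 135.8 CPM in T24R2. It fell by 0.72 on the log2 scale (SE 0.05, edgeR adjusted p = 7.8e-17), to 60.5% of T24, and every T24 library lay above every T24R2 library. TNFRSF10D (DcR2, ENSG00000173530.6, chr8:23135588-23164027), whose product lacks a working death domain, stood at 60.0, 57.5, 62.3, 62.6 and 71.0 CPM in T24 and at 30.1, 30.3, 33.0, 33.0 and 31.0 CPM in T24R2. The fall of this decoy was the largest among the 10 genes, 0.99 on the log2 scale (SE 0.07, edgeR adjusted p = 1.9e-16), to 50.2% of T24. No exon of another gene overlaps it. TNFRSF10A (DR4, ENSG00000104689.10, chr8:23190452-23225102) had 24.9, 31.0, 26.2, 22.5 and 24.6 CPM in T24 and 22.4, 21.6, 20.7, 21.3 and 20.2 CPM in T24R2. The lines came close (22.5 against 22.4 CPM) without overlap, and the log2 fold change of -0.28 (SE 0.09, edgeR adjusted p = 0.0047) was under the fold change minimum. Of the exon bases of TNFRSF10A, 16.7% (490 bases) are covered from the opposite strand, by TNFRSF10A-DT (2897 exon bases) and TNFRSF10A-AS1 (637). With the whole counts of both genes taken off, its log2 fold change was -0.06, against -0.34 with them added. Those counts include fragments outside the shared bases, so neither value isolates the reads of the overlap.

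The balance among the TRAIL receptors was read per kilobase of exon, since raw counts favour longer transcripts. TNFRSF10B made up 61.7% ± 1.71 (SD, n = 5) of the 3 receptors in T24 and 61.5% ± 1.64 in T24R2. The decoy TNFRSF10D made up 25.6% ± 2.02 in T24 and 21.2% ± 1.22 in T24R2, with library ranges of 22.9% to 28.5% and 20.5% to 23.3% that overlap. These shares are a description and were given no test. The other decoy, TNFRSF10C, was sparse and left untested, with 1 to 4 counts in T24 libraries and 9 to 30 in those of T24R2, and 33.0% of its exon bases are shared with another gene on its own strand.

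Among the other death and TNF receptors, 6 of 8 were tested, 4 were called lower and none was called higher. This count, like those of the lists below, stands beside 24.9% of all tested genes called higher and 26.5% called lower. TNFRSF21 (DR6) fell from 63.1 ± 5.78 to 7.99 ± 1.31 CPM (log2 fold change -2.99). TNFRSF25 (DR3), which recruits TRADD, fell from 36.1 ± 3.75 to 12.0 ± 1.26 CPM (log2 fold change -1.59), and TNFRSF12A, the receptor of TWEAK, from 189 ± 10.4 to 88.8 ± 9.13 CPM (log2 fold change -1.09). TNFRSF1A, the main receptor of TNF, was not called, with 208 ± 7.81 CPM in T24 and 171 ± 8.63 in T24R2 (log2 fold change -0.28, SE 0.05, edgeR adjusted p = 8.4e-07).

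**Figure D2:**
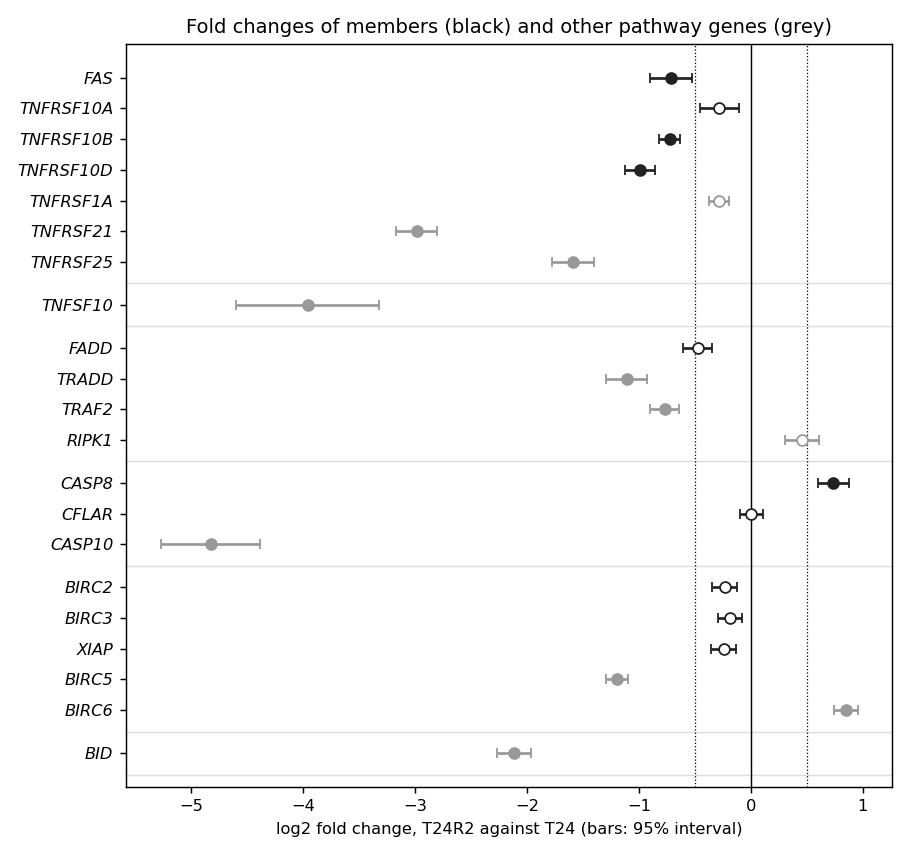
Log2 fold changes of T24R2 against T24 (horizontal axis) with 95% intervals, for the 10 members (black) and some other pathway genes (grey). Filled circles passed both thresholds, open circles did not, and dotted lines mark the fold change minimum of 0.5 in each direction. CASP10 at -4.83, TNFSF10 at -3.96 and BID at -2.12 lie farther from 0 than any of the 10 members.

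FADD (ENSG00000168040.5, chr11:70203296-70207390, plus strand) links the receptors to CASP8 through its death and death effector domains. It had 57.8, 61.6, 62.2, 52.4 and 64.2 CPM in T24 and 45.3, 44.9, 43.5, 39.6 and 41.2 CPM in T24R2. The lines did not overlap and the difference passed the adjusted p (edgeR, 3.1e-08), but the log2 fold change of -0.47 (SE 0.07) stopped just short of the minimum of 0.5. Without T24 replicate 4, the lowest T24 library, it was -0.52 and FADD was called. ENSG00000254721, a gene of 1011 exon bases on the opposite strand, lies wholly within the exons of FADD, and opposite-strand exons cover 59.2% of FADD. Per kilobase of exon the partner was more abundant than FADD itself, 44.5 against 34.9 CPM in T24 and 34.4 against 25.1 in T24R2. Taking its counts off those of FADD gave a log2 fold change of -0.85, which was called, and adding them gave -0.43, which was not. The size of the FADD difference therefore depends on how reads of the shared bases are assigned, while its sign was negative in every setting tried.

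Of the 10 other adaptors and kinases of receptor complexes, 9 were tested, 1 was called higher and 4 lower. TRADD, the adaptor of TNFRSF1A and TNFRSF25, fell from 33.5 ± 3.22 to 15.5 ± 1.84 CPM (log2 fold change -1.11). TRAF2, which brings BIRC2 and BIRC3 to receptor complexes, fell from 55.5 ± 1.88 to 32.5 ± 1.44 CPM (log2 fold change -0.77, SE 0.07, edgeR adjusted p = 1.1e-13). TRAF1 and TRAF5, its relatives, fell by 1.84 and 0.86 on the log2 scale. RIPK1, the kinase that BIRC2 and BIRC3 ubiquitinate, had 30 ± 3.00 CPM in T24 and 41.2 ± 2.35 in T24R2, with no overlap between the lines and a log2 fold change of 0.46 (SE 0.08, edgeR adjusted p = 1.3e-06) that was not called. It was called, at 0.62, without the TMM factors, and at 0.53 with upper-quartile scaling.

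CASP8 (ENSG00000064012.23, chr2:201233443-201287711, plus strand) was the single member that rose. Its libraries held 33.5, 30.2, 29.6, 29.9 and 32.1 CPM in T24 and 51.9, 47.3, 52.4, 50.6 and 56.8 CPM in T24R2. Every T24R2 library lay above every T24 library, and the log2 fold change was 0.74 (SE 0.07, edgeR adjusted p = 2.6e-12), a rise to 167% of T24. No exon of another gene overlaps CASP8, and the exact two-sided permutation test over libraries gave p = 0.00794, the smallest it can give with 5 libraries against 5. That same smallest exact p was reached by every member except CFLAR and BIRC2. Any gene whose lines do not overlap reaches it, and the lines did not overlap in 61.2% of all tested genes.

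CFLAR (ENSG00000003402.21, chr2:201116154-201176687, plus strand) had 93.3, 87.7, 88.3, 89.2 and 87.9 CPM in T24 and 98.1, 88.2, 84.4, 85.8 and 90.5 CPM in T24R2. The highest and lowest of the 10 libraries both came from T24R2, and the T24 libraries fell between them. The log2 fold change was 0.00 (SE 0.05, 95% interval -0.10 to 0.10, edgeR adjusted p = 0.98), and the exact permutation test gave p = 0.976. Without the TMM factors it was 0.16 (edgeR adjusted p = 0.0046), when the median of all genes was 0.18. Counts per gene do not separate the long and short forms of c-FLIP, nor the spliced forms of FAS and CASP8.

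CASP8 rose while CFLAR did not pass the test, and their ratio was read in each library. Per kilobase of exon, CFLAR over CASP8 was 0.872 ± 0.0341 (SD, n = 5) in T24 and 0.524 ± 0.0422 in T24R2. The T24 libraries ran from 0.830 to 0.904 and those of T24R2 from 0.482 to 0.572, without overlap. The size of the ratio rests on the summed exon length of all transcripts, which is 22478 bases for CFLAR, and from raw counts it was 2.88 in T24 and 1.73 in T24R2, so that no order of the genes should be read from it. The ratio is a description and was given no test. The change between the lines does not depend on scaling between libraries, since both genes are read in the same library.

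**Figure D3:**
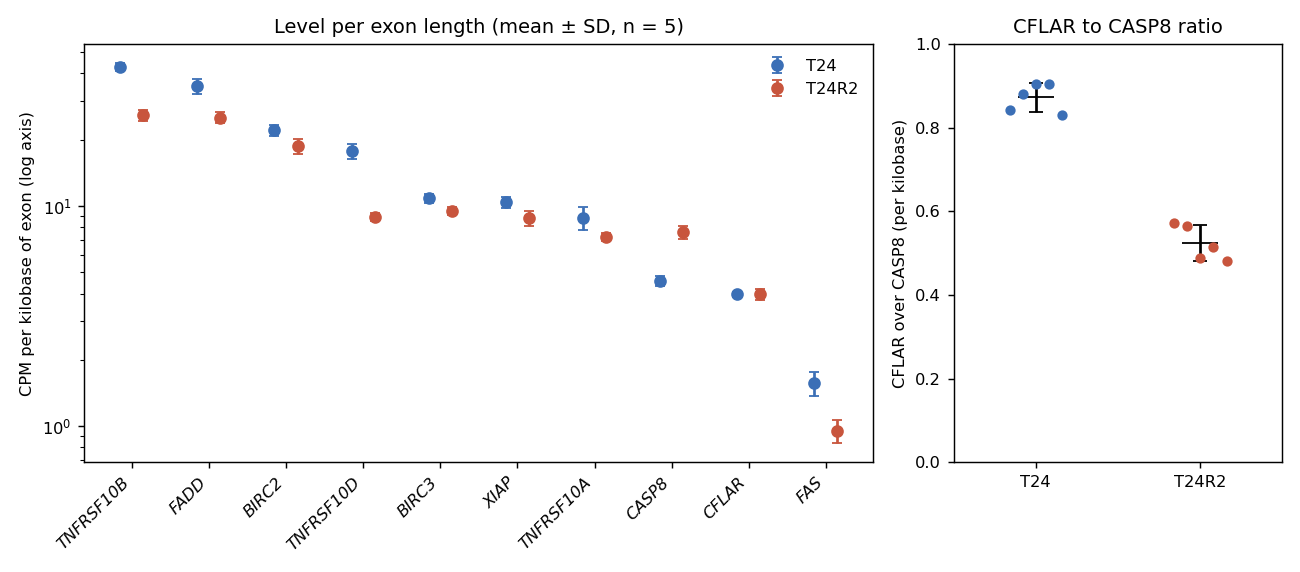
Left, mean ± SD (n = 5) of CPM per kilobase of exon on a log axis for the 10 genes, ordered by their T24 level, in T24 (blue) and T24R2 (red). Right, the CFLAR to CASP8 ratio in each library with mean and SD in black, where T24 lies at 0.830 to 0.904 and T24R2 at 0.482 to 0.572 (from raw counts the means are 2.88 and 1.73).

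CASP10, the second initiator caspase that FADD can recruit, lies on chromosome 2 between CFLAR and CASP8 and went the opposite way to CASP8. It stood at 15.2, 18, 16.5, 17.5 and 15.9 CPM in T24 and at 0.184, 0.520, 1.06, 0.178 and 0.983 CPM in T24R2, from 144 to 171 counts in T24 and from 2 to 11 in T24R2. CASP10 fell by 4.83 on the log2 scale (SE 0.23, edgeR adjusted p = 1.3e-21), to 3.52% of T24. CASP6, a caspase that acts downstream of the initiators, rose from 10.7 ± 0.961 to 17.4 ± 1.00 CPM (log2 fold change 0.71). CASP2, an initiator outside the receptor complexes, rose from 31.5 ± 4.23 to 59.0 ± 8.38 CPM (log2 fold change 0.90).

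BID, which CASP8 cleaves to carry the signal to mitochondria, fell steeply. Its T24 libraries held 66.7, 75.3, 70.3, 64.5 and 73.6 CPM and its T24R2 libraries 17.6, 15.8, 14.9, 14.0 and 18.7 CPM. The log2 fold change was -2.12 (SE 0.08, edgeR adjusted p = 3.2e-25), to 23.1% of T24. Of the 6 genes of the mitochondrial link and the apoptosome, 3 were called lower and none higher, the others being BAK1, which forms pores in the outer mitochondrial membrane (62.1 ± 2.20 to 33.1 ± 2.69 CPM), and APAF1, the scaffold of the apoptosome (43.8 ± 3.04 to 20.8 ± 2.67 CPM). Among 7 caspase substrates and nucleases, 2 were called in each direction. DFFA, the inhibitor of the apoptotic nuclease, fell by 0.82 and GSDME, a pore-forming gasdermin, fell by 0.66 on the log2 scale (-0.49 and not called without the TMM factors), whereas PARP1, a DNA repair enzyme, rose from 242 ± 11.9 to 360 ± 11.4 CPM (log2 fold change 0.57). Of the 5 necroptosis genes 3 were tested and 1 was called, TICAM1, the TRIF adaptor of Toll-like receptors (37.7 ± 4.20 to 23.8 ± 3.03 CPM).

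The IAPs among the 10 genes differed little between the lines. BIRC2 (ENSG00000110330.10, chr11:102347211-102378670, plus strand) had 108.2, 97.6, 101.9, 95.5 and 93.9 CPM in T24 and 77.2, 94.7, 81.6, 82.4 and 86.5 CPM in T24R2. T24R2 replicate 2 lay above the lowest T24 library, so that the lines overlapped, and the log2 fold change was -0.23 (SE 0.06, edgeR adjusted p = 0.00027, exact permutation p = 0.0159). BIRC3 (ENSG00000023445.16, chr11:102317450-102339403, plus strand) had 83.1, 78.9, 76.4, 87.1 and 81.1 CPM in T24 and 68.1, 70.7, 75.3, 69.9 and 73.1 CPM in T24R2. Its lines came close (76.4 against 75.3 CPM) but did not overlap, and its log2 fold change was -0.19 (SE 0.05, edgeR adjusted p = 0.0021). XIAP (ENSG00000101966.13, chrX:123859724-123913976, plus strand) had 92.9, 86.3, 99.4, 98.7 and 91.0 CPM in T24 and 81.9, 82.5, 69.0, 83.8 and 77.7 CPM in T24R2, without overlap (log2 fold change -0.24, SE 0.06, edgeR adjusted p = 0.000205). None of the 3 reached the fold change minimum.

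These small IAP differences rest on the scaling between libraries. Without the TMM factors the log2 fold changes were -0.07 for BIRC2, -0.03 for BIRC3 and -0.08 for XIAP, with edgeR adjusted p-values of 0.25, 0.68 and 0.21, and that of TNFRSF10A was -0.12 (edgeR adjusted p = 0.22). Under the same setting FAS, TNFRSF10B, TNFRSF10D and CASP8 were still called, at -0.55, -0.56, -0.83 and 0.90. BIRC3 made up 25.0% ± 1.28 (SD, n = 5) of the 3 IAPs per kilobase in T24 and 25.7% ± 1.53 in T24R2, with overlapping libraries.

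BIRC5 (survivin), which acts mainly in cell division, and BIRC6, a giant ubiquitin ligase, were the other IAP family members with enough counts, and they moved in opposite directions. BIRC5 fell from 149 ± 5.65 to 64.7 ± 2.66 CPM (log2 fold change -1.20, SE 0.05, edgeR adjusted p = 2.6e-23). BIRC6 rose from 83.4 ± 3.97 to 150 ± 11.6 CPM (log2 fold change 0.85, SE 0.05, edgeR adjusted p = 2.3e-17). Of 6 IAP antagonists and regulators, 2 were called higher and 1 lower. DIABLO, the mitochondrial protein that displaces IAPs from caspases, was listed at 8 to 17 counts in T24 libraries and at 25 to 47 in those of T24R2 (1.33 ± 0.347 to 3.05 ± 0.779 CPM, log2 fold change 1.19, SE 0.28, edgeR adjusted p = 0.00025), but 31.5% of its exon bases are shared with another gene on its strand, and by default such fragments are counted to neither gene. SEPTIN4, whose short form ARTS binds XIAP, had 0.775 ± 0.440 and 1.73 ± 0.873 CPM with overlapping libraries, and without T24R2 replicate 1 its edgeR adjusted p was 0.051. GSPT1, a translation termination factor with an IAP-binding form, fell from 245 ± 11.9 to 155 ± 8.27 CPM (log2 fold change -0.67).

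BIRC3 and CFLAR are textbook NF-kB targets, so the promoter windows of the members were searched for the κB consensus, the 10-base motif bound by NF-kB dimers, on both strands. RefSeq windows on GRCh38.p14, running from 250 bases before to 50 after each start site, were held for 7 of the 10 genes, not for TNFRSF10A, TNFRSF10B and TNFRSF10D. A match was held by 3 of the 7 members, BIRC3, CFLAR and FAS, beside 13.3% of 27305 genes, and by 3 of the 17 windows of the 7 members, beside 11.3% of 35116 windows. The matches are shown with 10 bases on each side and the match in capitals, beside matches of TNFAIP3, NFKBIA and TNIP1, inhibitors that NF-kB induces and whose levels follow. Those 3 inhibitors were named for being called with a small adjusted p, so their differences are not a result about genes with a match. BIRC3 carries a pair of matches, in the printed stretches chr11:102317275-102317304 and chr11:102317339-102317368 on the plus strand, with the first base of each match 199 and 135 bases before an annotated start site. TNFAIP3 also carries a pair, of which the match 67 bases before its start site is not printed. The other printed stretches are chr2:201118609-201118638 (plus, CFLAR, 97 bases before), chr10:88991264-88991293 (plus, FAS, 157 bases before), chr6:137867194-137867223 (plus, TNFAIP3, 55 bases before), chr14:35404811-35404840 (minus, NFKBIA, 81 bases before) and chr5:151081057-151081086 (minus, TNIP1, 42 bases before).
BIRC3 distal: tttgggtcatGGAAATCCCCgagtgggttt
BIRC3 proximal: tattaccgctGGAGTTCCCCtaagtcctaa
CFLAR: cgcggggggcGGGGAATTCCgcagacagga
FAS: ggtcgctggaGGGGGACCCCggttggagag
TNFAIP3: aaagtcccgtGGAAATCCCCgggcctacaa
NFKBIA: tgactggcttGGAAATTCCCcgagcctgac
TNIP1: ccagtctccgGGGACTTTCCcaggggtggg

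The distal match of BIRC3 and the printed match of TNFAIP3 have the same 10 letters. A match says only that these letters stand in the window. Of the 6 genes shown, CFLAR and BIRC3 were not called, with log2 fold changes of 0.00 and -0.19, and FAS fell by 0.72. TNFAIP3 fell from 247 ± 24.2 to 37.2 ± 3.20 CPM (log2 fold change -2.73, SE 0.06, edgeR adjusted p = 5.0e-32). TNFAIP3 (A20) removes ubiquitin chains from RIPK1 and restrains NF-kB. TNIP1, its partner, fell from 425 ± 11.5 to 191 ± 9.69 CPM (log2 fold change -1.16), and NFKBIA, which holds NF-kB in the cytoplasm, from 208 ± 13.0 to 85.6 ± 5.46 CPM (log2 fold change -1.28).

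Of the 12 ubiquitin editors of receptor complexes, 10 were tested, 1 was called higher and 4 lower. RBCK1 (HOIL-1), a subunit of the linear ubiquitin ligase, fell from 172 ± 3.82 to 69.1 ± 1.69 CPM (log2 fold change -1.32). All 16 NF-kB factors and kinases were tested, 2 were called higher, 5 lower and 9 were not called, with a median log2 fold change of -0.08. NFKB2, the precursor of p52 in the noncanonical branch that BIRC2 and BIRC3 hold back, fell from 207 ± 7.95 to 73.8 ± 2.72 CPM (log2 fold change -1.49). IKBKB, the kinase that phosphorylates NFKBIA, fell from 103 ± 3.31 to 43.5 ± 3.59 CPM (log2 fold change -1.25). MAP3K14 (NIK), the kinase of the noncanonical branch, named here after its values were seen, went the other way and rose from 23.6 ± 3.04 to 47.7 ± 4.20 CPM (log2 fold change 1.01, SE 0.08, edgeR adjusted p = 4.4e-14), with 15.1% of its exon bases covered from the opposite strand.

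Over all 11 pathway lists, 76 of 90 genes were tested, 12 were called higher and 29 lower, beside 24.9% and 26.5% of all tested genes, with a median log2 fold change of -0.30. The count of higher calls was 20 without the TMM factors, with 27 lower. These counts describe the lists, and no test set them against other genes.

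FAS and the TRAIL receptors are known targets of p53, and TNFRSF10B is also a known target of CHOP (DDIT3), the factor induced by endoplasmic reticulum stress. Of 17 tested genes of the p53 list all 17 were called, 11 lower and 6 higher, beside 51.4% of all tested genes, with a median log2 fold change of -1.06. CDKN1A (p21) fell from 97.7 ± 4.11 to 12.8 ± 1.76 CPM (log2 fold change -2.93), PHLDA3, an inhibitor of AKT signalling, from 25.6 ± 1.31 to 4.27 ± 0.838 CPM (log2 fold change -2.57), and GDF15, a secreted stress factor, from 61.7 ± 10.7 to 0.787 ± 0.559 CPM (log2 fold change -6.29). For PHLDA3, 18.4% of the exon bases are shared with another gene on its strand. The p53 list was thus mixed in direction, while the genes named from it, taken by smallest adjusted p, were all lower. Of the 10 ATF4-CHOP genes, 2 were called higher, 1 lower and 7 not called. CHAC1, a glutathione-degrading enzyme, rose from 12.9 ± 1.19 to 22 ± 2.86 CPM (log2 fold change 0.76), PPP1R15A (GADD34), which restores translation after stress, rose from 71.1 ± 4.09 to 108 ± 13.6 CPM (log2 fold change 0.60), and ERN1 (IRE1), a sensor of unfolded proteins, fell from 19.6 ± 3.20 to 9.27 ± 1.46 CPM (log2 fold change -1.07). DDIT3 itself, named here after its values were seen, had 19.8 and 18 CPM (log2 fold change -0.14, edgeR adjusted p = 0.21).

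Ordered by CPM per kilobase of exon in T24, TNFRSF10B came first at 42.7, followed by FADD at 34.9, BIRC2 at 22, TNFRSF10D at 17.7, BIRC3 at 10.8, XIAP at 10.4, TNFRSF10A at 8.83, CASP8 at 4.56, CFLAR at 3.97 and FAS at 1.56. The library ranges of neighbours in this order overlapped for BIRC3 with XIAP and for XIAP with TNFRSF10A. In T24R2 TNFRSF10B (25.9) and FADD (25.1) overlapped, BIRC2 followed at 18.7, and BIRC3 (9.50), TNFRSF10D (8.90), XIAP (8.78), CASP8 (7.61) and TNFRSF10A (7.25) formed a run in which each overlapped the next. CFLAR at 3.98 and FAS at 0.952 came last, both of them genes whose summed exons of all transcripts are long (22478 and 19060 bases), which lowers a level per kilobase.

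Several members are neighbours in the genome, which the choice of genes did not use, and the tested genes within 0.5 Mb of each locus were read beside them. The counts below stand beside 24.9% of all tested genes called higher and 26.5% called lower. Around CASP8 and CFLAR, 13 of 20 tested neighbours were called higher and 3 lower, with a median log2 fold change of 0.58. CASP10 lies inside that run, and the neighbour with the smallest adjusted p was AOX1, an aldehyde oxidase, which rose from 13.7 ± 2.68 to 111 ± 3.73 CPM (log2 fold change 3.02). CFLAR, in the same stretch, had a log2 fold change of 0.00. Around the TRAIL receptors the neighbours were balanced, with 2 of 23 called higher, 2 lower and a median of 0.05, and ENTPD4, a nucleotide-hydrolysing enzyme of the Golgi, fell by 0.62. Around BIRC2 and BIRC3, 6 of 12 neighbours were called lower and none higher, with a median of -0.52, beside -0.23 and -0.19 for the 2 members themselves. The smallest adjusted p there was that of MMP1, a collagenase, which fell from 15.6 ± 1.85 to 0.217 ± 0.210 CPM. None of the other called genes there had a higher T24 mean than MMP1. The neighbours with far higher levels were not called and differed in sign. TMEM123 (425 CPM in T24) had a log2 fold change of -0.26 and YAP1 (207 CPM in T24) of 0.27. Around FADD 3 of 6 and around FAS 4 of 10 neighbours were called lower and none higher, with CTTN (cortactin) falling by 0.60 and ACTA2 by 3.53 on the log2 scale. Of the calls around FAS, ACTA2 and ENSG00000286116 share exon bases with FAS itself, so their reads may not be separate from its own. ENSG00000254721, which lies within the exons of FADD, was counted as a neighbour and was not called. Around XIAP, THOC2, an mRNA export factor, was the only call among 3 neighbours and fell by 0.57. Without the TMM factors ENTPD4 (-0.46), CTTN (-0.43) and THOC2 (-0.40) were no longer called, nor was THOC2 with upper-quartile scaling (-0.49). No test was made of these stretches, and DNA copy number was not measured.

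**Figure D4:**
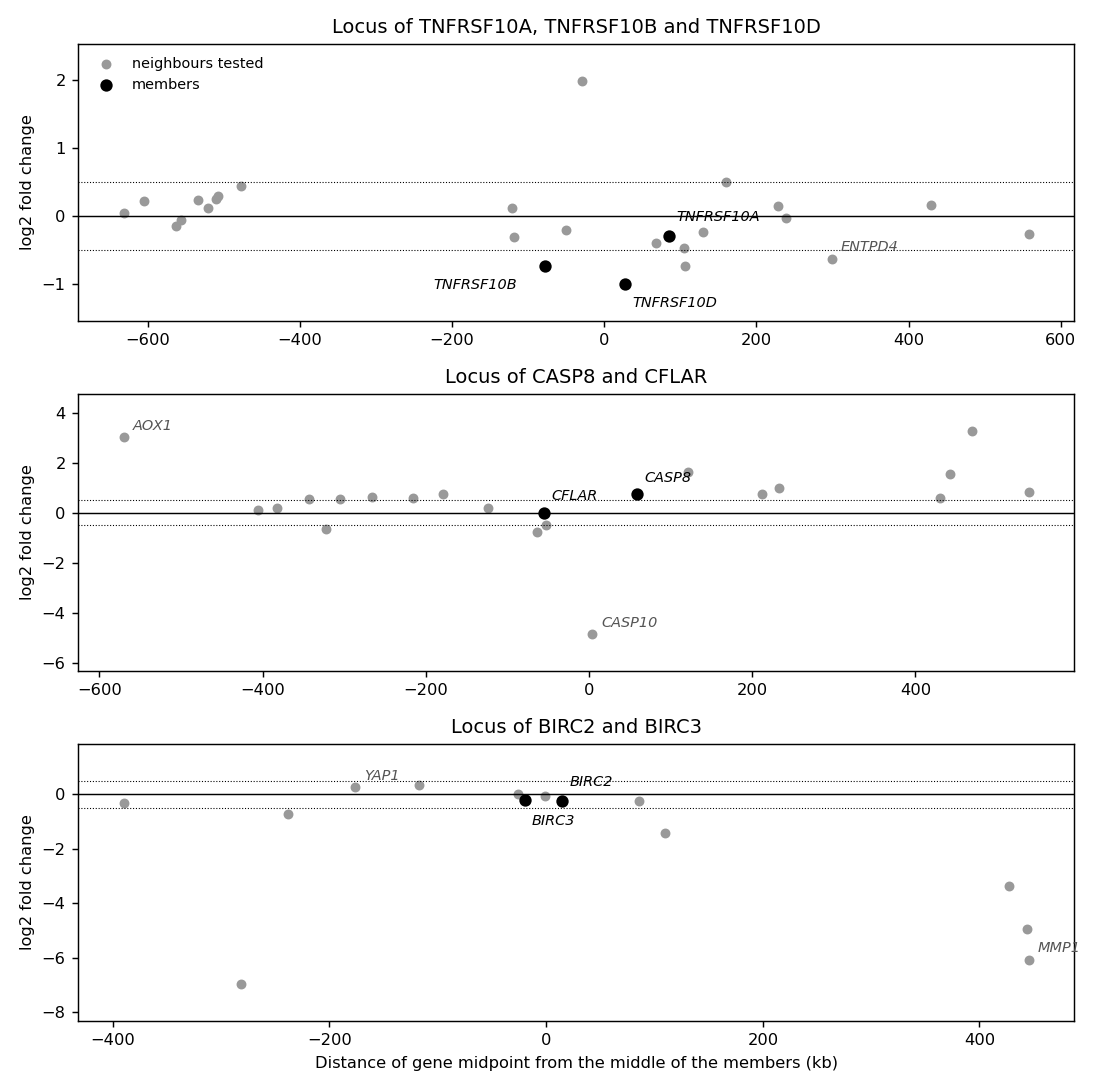
Log2 fold change of T24R2 against T24 (vertical axis) of tested genes by the distance of their midpoint, in kb, from the middle of the members (black) at 3 loci, with neighbours within 0.5 Mb of a member in grey and dotted lines at the fold change minimum. Most neighbours of CASP8 and CFLAR lie above 0 while CASP10, between them, lies at -4.83, and no neighbour of BIRC2 and BIRC3 lies above the upper dotted line.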

How the data were processed

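RNA-seq libraries of T24 and T24R2 (5 each) were analysed. The authors deposited raw fragment counts per gene, without normalization or pooling. Per the labels and methods, reads were aligned to hg38 with STAR 2.7.0, unique alignments without duplicates were kept with SAMtools 1.10, and featureCounts 2.0.1 counted them over GENCODE release 39 with strand option 1. The library kit is not described as strand-specific, so reads of a gene and its antisense partner may not be told apart, and fragments over bases shared by genes of 1 strand are dropped.

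From these counts, edgeR 4.0.16 in R 4.3.3 was run with filterByExpr, TMM, glmQLFit and glmQLFTest, and Benjamini-Hochberg adjustment over 16181 genes, and was tested on simulated data. The biological coefficient of variation was 6.61%. Calls needed an adjusted p under 0.05 and a log2 fold change above 0.5 in size, as in the study's methods. Exact two-sided permutation tests of CPM went through every split of the libraries with numpy 2.4.6. Tables and figures used pandas 2.3.3 and matplotlib 3.10.9 in Python 3.11.15. Bedtools 2.31.1 gave exon overlaps. Alternatives were DESeq2 1.42.0, limma 3.58.1 (voom), other scalings, filters and thresholds, a replicate block and leaving out each library. Of 61533 genes, 61369 had a symbol. The floor was 3 counts per library and covers counting error only. Each of 20 pairs of libraries within a line differed by more than sampling noise.

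The members and lists were chosen with earlier results of these data known. Named genes were the members, 12 pathway genes fixed by name, up to 3 further called genes per list by smallest adjusted p, and the called neighbour with the smallest adjusted p at each locus. MeRIP-seq libraries were not analysed here, and the results of some listed genes are not reported here.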

Additional observations from a re-analysis of the deposited data

Results flagged for a closer look

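Within a line of 5 libraries, the gap of the highest or lowest library to its nearest neighbour was compared with the range of the line. Of 122 sets of 5 libraries so read, 5 held a library that stood apart, where chance gives about 1 in 20 (6.1 of 122).

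CFLAR was at 93.3 CPM in T24 replicate 1, above the other 4 libraries at 87.7 to 89.2. RIPK1 was at 24.8 CPM in T24 replicate 2, below the others at 30.2 to 32.2. LTB was at 2.84 CPM in that same library, above the others at 0.519 to 0.972. TNFAIP3 was at 42.9 CPM in T24R2 replicate 3, above the others at 35.2 to 36.5. In that library TNFRSF10D also made up 23.3% of the 3 TRAIL receptors per kilobase, against 20.5% to 21.2% in the others. No cause was tested.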

How the results depend on the processing

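Leaving out each library in turn gave 3 to 4 members called lower and 1 higher, 28 to 30 pathway genes lower and 11 to 14 higher, and 4293 to 4374 genes lower and 4042 to 4138 higher over all. The fourth member was FADD, at -0.52 without T24 replicate 4. Same-numbered libraries of the lines did not deviate together (r -0.022 to 0.017), so the numbers do not pair them, and a fit with the replicate number as a block called the same counts of members (3 lower, 1 higher) and 3979 genes higher and 4261 lower in all.

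With no fold change minimum, 6128 genes were higher, 8 members lower, 25 pathway genes higher, and 23 neighbours higher and 32 lower. With an absolute log2 fold change over 1, 1918 genes were higher and 2293 lower, 0 members were called in either direction, 4 pathway genes and 4 p53 or CHOP genes were higher, and 5 neighbours were higher and 10 lower. With a mean of at least 100 counts, 2350 genes were higher and 2641 lower, and 5 neighbours were lower, since fewer genes were tested.

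CFLAR, at 0.00, changed sign without being called: it was -0.0037 with DESeq2 size factors in edgeR, -0.0061 in both DESeq2 fits, -0.00079 in limma-voom, -0.0019 with no count filter, -0.067 with opposite-strand counts added, and -0.03 to 0.026 over the fits that left out a library (-0.0094, -0.0077, -0.0047 and -0.0091 without T24 replicates 2 to 5, -0.030 without T24R2 replicate 1). Without the TMM factors 20 pathway genes were higher, and GSDME (-0.49), ENTPD4 (-0.46), CTTN (-0.43) and THOC2 (-0.40) dropped under the fold change minimum, THOC2 also with upper-quartile scaling (-0.49). The settings with opposite-strand counts were chosen after the data were seen.

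From raw counts in place of counts per kilobase, CFLAR over CASP8 was 2.88 in T24 and 1.73 in T24R2. TNFRSF10D made up 20.7% and 17.3% and TNFRSF10B 70.7% and 71.0% of the TRAIL receptors, and BIRC3 29.7% and 30.4% of the IAPs. Longer exons raise a raw count.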
